A study of Mus musculus with 36 samples.

Results

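A set of 9 long noncoding RNAs that stay in the nucleus or carry small nucleolar RNAs (snoRNAs) in their introns was followed through the differentiation of mouse brown pre-adipocytes. They were picked by name, matched to the GENCODE M21 annotation by gene symbol, and make up 9 of the 55536 genes listed. The nuclear RNAs are *Malat1*, *Neat1* and *Kcnq1ot1*. The 6 snoRNA hosts are *Gas5*, *Snhg1*, *Snhg3*, *Snhg8*, *Snhg12* and *Zfas1*. All 9 passed the filter on low counts.

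The cells were brown pre-adipocyte lines in which *Rxra*, the gene of the nuclear receptor RXRα, had been knocked out with CRISPR/Cas9. Each line was monoclonal, so 48 and 66 are 1 clone each, and both came from a clonal wild-type line. Both *Rxra*-/- clones were transduced with a pBabe Hygro retrovirus that re-expressed mouse RXRα, either wild-type (*Rxra*WT) or with serine 22 replaced by alanine (*Rxra*SA). Total RNA was sequenced at days 0, 2 and 6, with 3 libraries for each clone, genotype and day, giving 36 libraries, 12 per day. Day 0 was confluence in medium with insulin and triiodothyronine. Dexamethasone, isobutylmethylxanthine and indomethacin were added from day 0 to day 2 and then withdrawn, so time and medium cannot be told apart. Clone 48 was sequenced in library pool 1 and clone 66 in library pool 2, so clone and pool cannot be told apart either.

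A snoRNA host is transcribed and spliced like a messenger RNA, and its introns are trimmed into snoRNAs, which guide the chemical modification of ribosomal RNA as part of small protein-RNA particles. The spliced remainder of many hosts is short-lived because nonsense-mediated decay removes it, and several hosts start at a run of pyrimidines, as the genes of ribosomal proteins do. *Neat1* is the RNA on which nuclear bodies called paraspeckles are built, *Malat1* is an abundant RNA of the nuclear speckles, and *Kcnq1ot1* is transcribed from the paternal allele and silences neighbouring genes in an imprinted domain.

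The first bases of 4 hosts are shown here because they carry this pyrimidine run at their start. Each line gives 10 bases before and 20 bases from the annotated start, from RefSeq on GRCm38.p6, with capitals for a run of at least 5 C or T that begins within 3 bases of the start.
*Gas5*, chr1:161035156-161035185, plus strand: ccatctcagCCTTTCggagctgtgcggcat
*Snhg3*, chr4:132353667-132353696, minus strand: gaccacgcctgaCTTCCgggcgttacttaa
*Snhg8*, chr3:123508317-123508346, minus strand: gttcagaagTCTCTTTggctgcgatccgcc
*Snhg12*, chr4:132308668-132308697, plus strand: ttctcagTCCTTTCTCgcttcatccgcggt
*Malat1*, chr19:5802653-5802682, minus strand: ggctctgcgtcaggcattcaggcagcgaga
The run was present for 4 of the 6 hosts. At *Gas5* it lay at the second of 2 listed starts. The windows of *Snhg1* and *Zfas1* had no such run, nor had *Malat1* and *Kcnq1ot1*. Of all 32851 windows, 13.8% had one, and 2 of 11 other snoRNA hosts did. *Neat1* was not matched to a window. In the longer window from 250 bases before to 50 bases after the start, TATAAA on either strand was found for 3 of the 6 hosts (*Snhg1*, *Snhg3* and *Snhg8*) and in 13.6% of all windows. CACGTG, searched likewise, was found for 0 of the 6 and in 7.15% of all windows. These are matches of letters and no measure of use.

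A few of the snoRNAs inside the hosts are shown because they are the products that give the hosts their name, taken from the reference genome at their GENCODE positions. In the box C/D snoRNAs, capitals mark box C (TGATGA) where it was found and box D (CTGA), and in the box H/ACA snoRNAs they mark ACA near the 3′ end.
*Snord78* in *Gas5*, chr1:161036984-161037049, plus strand: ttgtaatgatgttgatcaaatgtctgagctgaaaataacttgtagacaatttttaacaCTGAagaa
*Snord12* in *Zfas1*, chr2:167065276-167065365, plus strand: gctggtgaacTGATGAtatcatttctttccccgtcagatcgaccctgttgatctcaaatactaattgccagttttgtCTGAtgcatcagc
*Snora24* in *Snhg8*, chr3:123507937-123508066, minus strand: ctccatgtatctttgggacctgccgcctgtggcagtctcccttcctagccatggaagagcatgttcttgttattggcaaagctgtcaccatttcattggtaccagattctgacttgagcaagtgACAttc
*Snora73a* in *Snhg3*, chr4:132352775-132352979, minus strand: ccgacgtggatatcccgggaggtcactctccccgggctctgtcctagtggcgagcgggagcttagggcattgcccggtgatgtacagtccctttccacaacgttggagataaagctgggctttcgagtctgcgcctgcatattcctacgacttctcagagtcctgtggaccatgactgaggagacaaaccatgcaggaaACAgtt
The 6 hosts held 29 annotated snoRNA genes of 60 to 205 bases, 10 of them in *Gas5*, 8 in *Snhg1*, 5 in *Snhg12*, 3 in *Zfas1*, 2 in *Snhg3* and 1 in *Snhg8*. No read pair was counted for 28 of the 29 in any library, and *Snora73a* had 0 to 3 counts. Of the 29, 27 lay entirely within bases that the annotation also gives as exons of the host, where a pair belongs to more than 1 gene and was not counted. The counts therefore leave the snoRNAs out and describe the rest of the hosts. For *Snhg1*, *Snhg8*, *Snhg12* and *Zfas1* the annotated exons cover the whole span. Reads of spliced and unspliced RNA cannot be told apart in their counts.

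On GRCm38, *Malat1* (ENSMUSG00000092341.3) lies on chromosome 19 from 5795690 to 5802672, with *Neat1* (ENSMUSG00000092274.3) near it from 5824708 to 5845478, both on the minus strand. *Kcnq1ot1* (ENSMUSG00000101609.2) is on chromosome 7 from 143203458 to 143296549 and has exon annotation along its whole span, antisense to *Kcnq1*. *Gas5* (ENSMUSG00000053332.13) is on chromosome 1 from 161034422 to 161038539. *Snhg1* (ENSMUSG00000108414.1) is on chromosome 19 from 8723475 to 8726443, and *Snhg12* (ENSMUSG00000086290.9) and *Snhg3* (ENSMUSG00000085241.7) are both on chromosome 4, from 132308623 to 132311024 and from 132348014 to 132353686. *Snhg8* (ENSMUSG00000104960.1) is on chromosome 3 from 123507552 to 123508404, and *Zfas1* (ENSMUSG00000074578.13) is on chromosome 2 from 167062934 to 167065862. Of the 986 exon bases of *Snhg3*, 135 (13.69%) belong to no other gene, so its count is drawn from a small part of the transcript. For the other 8 members this share was from 79.05% for *Snhg1* to 98.8% for *Kcnq1ot1*. Counting did not use strand, so where a member and a gene on the opposite strand overlap, their reads cannot be told apart.

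Library totals were 11351078 to 24349263 counts, with a median of 18338726. The smallest was clone 48, *Rxra*SA, day 0, replicate 1, which stood apart with 3.06% of its counts on *Lars2*, and each count of members below was repeated without it. Of 9 adipocyte marker genes, 8 were tested and all 8 were higher at day 2 than at day 0 (median log2 fold change 5.26), whereas *Ucp1*, which defines heat-producing brown fat, had 0 to 5 counts. Of 6 macrophage markers 2 were tested. *Cd68*, a lysosomal protein gene that is not confined to macrophages, had means of 6.94, 3.75 and 8.28 CPM at days 0, 2 and 6 and *Lyz2* had 2.04, 0.0277 and 0.146, both lower at day 2 than at day 0 (-0.87 and -5.92). *Csf1r* had at most 20 counts in a library, and *Ptprc*, *Adgre1* and *Itgam* had at most 1. The part of these genes in the members' changes was not tested. *Rxra* itself had 92.6 to 712 CPM (the normalised read count, which corrects for library size), which include the retroviral RNA and so do not check the knockout. In bulk RNA, fewer cells of a type and less RNA per cell cannot be told apart.

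The 9 RNAs spanned a wide range of levels. *Malat1* had 43869 to 346117 counts per library, or 0.278 to 1.70% of all counts. *Snhg3* was the scarcest by count, with 15 to 49. *Neat1* had 1636 to 12815 counts, *Gas5* 1017 to 4884, *Snhg1* 961 to 5379, and the other 4 had library medians between 621 and 1137 counts. *Kcnq1ot1*, the longest at 93092 exon bases, ranked last once length was taken into account. On the scale of CPM per kilobase of exon, the day 0 means were 1438 ± 440 (SD, n = 12 libraries) for *Malat1*, 61.2 ± 8.08 for *Snhg8*, 36.2 ± 5.08 for *Gas5*, 35.6 ± 6.28 for *Snhg1*, 18.8 ± 3.01 for *Zfas1*, 18.8 ± 3.55 for *Neat1*, 12.8 ± 1.65 for *Snhg12*, 1.58 ± 0.384 for *Snhg3* and 0.498 ± 0.118 for *Kcnq1ot1*. *Gas5* and *Snhg1*, *Zfas1* and *Neat1*, and *Neat1* and *Snhg12*, were neighbours whose day 0 libraries overlapped in level. By their means, *Malat1*, *Snhg8*, *Snhg3* and *Kcnq1ot1* held ranks 1, 2, 8 and 9 on each of the 3 days. The others changed places: *Neat1* was 6th of the 9 at first, then 7th and lastly 5th. Rank 2 was not clear of *Snhg1* at days 2 and 6. *Snhg8* had 66.4 to 116 CPM per kilobase at day 2 and *Snhg1* 50.4 to 115. At day 6 they had 40.1 to 91.9 and 18.4 to 44.6. The place of *Snhg3* depends on the length used. Divided by its 135 bases of no other gene it had 11.5 ± 2.81 CPM per kilobase at day 0 and 14.999 ± 2.79 at day 2, and ranked 7th at day 2, above *Neat1* at 8.84 ± 2.20. On that scale *Malat1*, *Snhg8* and *Kcnq1ot1* kept ranks 1, 2 and 9.

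The first question was how each RNA changed from day 0 to day 2, when the differentiation cocktail was present. All 6 snoRNA hosts rose and *Neat1* fell. *Malat1* and *Kcnq1ot1* did not pass the test. In the edgeR quasi-likelihood test with clone as a term, at a Benjamini-Hochberg adjusted p of 0.05 over the 16723 genes tested, 6 of the 9 members were higher and 1 was lower. The background was large, since 35.8% of all genes tested were higher and 37.5% were lower. The median log2 fold change was 0.54 over the members and -0.02 over all genes.

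*Snhg1*, the host of 8 snoRNAs, rose most. Its lowest, median and highest CPM in the 12 libraries were 80.2, 101 and 134 at day 0 and 150, 217 and 340 at day 2. Every day 2 library was above every day 0 library, and *Snhg1* was the 1 member of 9 for which this was so. Of all genes tested, 27.7% had such a gap in one direction or the other. The log2 fold change was 1.16 ± 0.14 (standard error, adjusted p = 9.62e-09), a 2.23-fold rise.

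The remaining hosts rose by smaller amounts, with ranges that overlapped between the days. *Snhg12*, the host of 5 snoRNAs, had 25.2, 30.0 and 38.5 CPM at day 0 (lowest, median and highest) and 34.3, 53.1 and 80.3 at day 2, a log2 fold change of 0.80 ± 0.10 (adjusted p = 4.54e-09). *Zfas1*, the transcript antisense to the start of *Znfx1*, went from 45.4, 51.8 and 76.0 CPM to 56.96, 85.2 and 124 (0.62 ± 0.09, adjusted p = 1.05e-07). For both, day 2 libraries that lay within the day 0 range were of clone 66. *Snhg8*, the host of *Snora24*, went from 43.9, 52.3 and 64.8 CPM to 56.6, 78.4 and 99.3 (0.59 ± 0.12, adjusted p = 5.86e-05). *Gas5*, which takes its name from growth arrest and carries 10 snoRNAs, went from 108, 132 and 166 CPM to 136, 190 and 273 (0.54 ± 0.12, adjusted p = 0.000174). *Snhg3*, the host of *Snora73a*, went from 0.956, 1.52 and 2.41 CPM to 1.56, 1.96 and 2.701 (0.38 ± 0.12, adjusted p = 0.00535), on counts of at most 49.

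*Neat1* moved the other way. Its lowest, median and highest CPM were 230, 390 and 492 at day 0 and 114, 169 and 258 at day 2, and only the upper end of the day 2 range reached into the day 0 range. The log2 fold change was -1.12 ± 0.12 (adjusted p = 4.26e-10), a 2.17-fold fall. *Malat1*, transcribed from the neighbouring gene, had 5962, 9869 and 14624 CPM at day 0 and 3030, 8755 and 12179 at day 2, and its log2 fold change of -0.30 ± 0.22 did not pass (adjusted p = 0.223, interval -0.74 to 0.15). Without replicate 1 of clone 66 it did (-0.49, adjusted p = 0.0249). *Kcnq1ot1* had 28.4, 46.0 and 64.6 CPM at day 0 and 35.2, 45.1 and 130 at day 2, with nearly the same median and a log2 fold change of 0.44 ± 0.21 that did not pass (adjusted p = 0.0605). Its 4 highest day 2 values came from the libraries of replicate 1, and without these 4 the change was -0.09 (adjusted p = 0.624). It passed without replicate 2 of clone 48 (0.51, adjusted p = 0.0433) or of clone 66 (0.60, adjusted p = 0.0268).

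**Figure D1:**
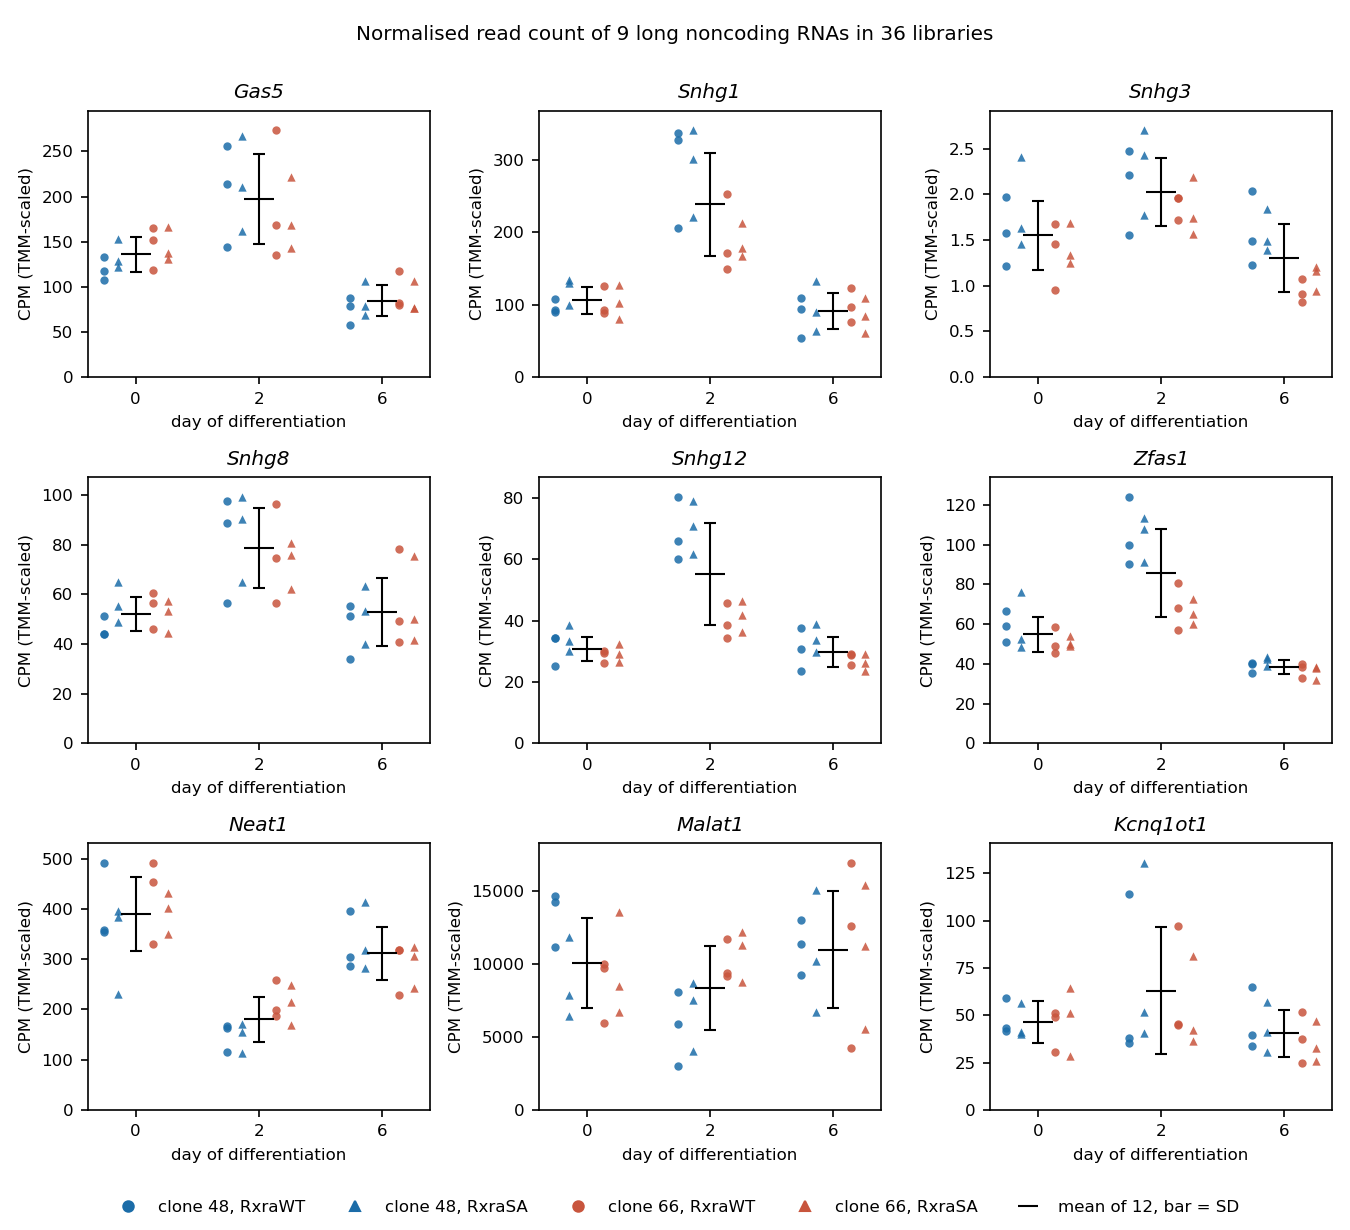
Level of each long noncoding RNA in every library (CPM, linear axes that start at 0) by day, with colour for clone, symbol for genotype and a bar for the mean and SD of 12 libraries. The day 2 mean is the highest of the 3 for the 6 hosts and the lowest for *Neat1*, while *Malat1* spreads from 3030 to 16897 CPM without a shift between days that passed the test.

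Among the scalings tried, the call of a host at day 2 depended on the choice for *Snhg3* alone. With library size in place of trimmed-mean (TMM) scaling, the median of all genes shifted to -0.27 on the log2 scale from day 0 to day 2 and to -0.22 from day 0 to day 6, and higher genes made up 33.6% rather than 48.9% of those called from day 0 to day 2, and 34.9% rather than 48.2% from day 0 to day 6. Under it *Snhg3* had 0.12 (adjusted p = 0.369), *Malat1* was called lower at day 2 (-0.55, adjusted p = 0.0219), and the other 5 hosts were still called higher.

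From day 2 to day 6, after the cocktail was withdrawn, the directions turned. All 6 hosts fell, *Kcnq1ot1* fell and *Neat1* rose, so 1 member was higher (against 31.9% of all genes) and 7 were lower (against 30.1%). This contrast uses the same day 2 libraries as the one before, so the opposite signs are not independent. The median log2 fold change was -0.66 over the members and 0.01 over all genes.

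*Snhg1* fell to 54.5, 91.8 and 132 CPM (day 6 lowest, median and highest), a log2 change of -1.37 ± 0.15 (adjusted p = 4.92e-10). *Gas5* fell to 57.7, 79.5 and 117 CPM (-1.22 ± 0.12, adjusted p = 1.27e-10) and *Zfas1* to 31.8, 38.7 and 43.6 CPM (-1.13 ± 0.09, adjusted p = 2.42e-13). For these 3 members every day 6 library was below every day 2 library, as it was, in one direction or the other, for 17.1% of all genes. *Snhg12* fell to 23.5, 29.1 and 38.8 CPM (-0.85 ± 0.10, adjusted p = 1.79e-09), *Snhg3* to 0.826, 1.21 and 2.04 CPM (-0.66 ± 0.12, adjusted p = 2.20e-05) and *Snhg8* to 34.2, 50.8 and 78.4 CPM (-0.58 ± 0.12, adjusted p = 0.000118). Their ranges on the 2 days overlapped.

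*Neat1* rose to 229, 313 and 413 CPM, a log2 fold change of 0.81 ± 0.12 (adjusted p = 5.26e-07). *Malat1* had 4226, 11301 and 16897 CPM and did not pass (0.42 ± 0.22, adjusted p = 0.0940), except without replicate 1 of clone 66 (0.64, adjusted p = 0.00479). *Kcnq1ot1* had 24.7, 38.3 and 64.7 CPM and passed (-0.64 ± 0.21, adjusted p = 0.00871), but with the 4 day 2 libraries of replicate 1 left out the change was -0.08 (adjusted p = 0.706). Leaving out replicate 1 of clone 48 alone gave -0.28 (adjusted p = 0.243), and of clone 66 alone -0.39 (adjusted p = 0.137).

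Between day 0 and day 6 the hosts parted. *Gas5* (-0.68 ± 0.12, adjusted p = 7.79e-06) and *Zfas1* (-0.52 ± 0.09, adjusted p = 3.26e-06) ended below their day 0 levels. *Snhg8* (0.02 ± 0.12, adjusted p = 0.911) and *Snhg12* (-0.06 ± 0.10, adjusted p = 0.617) did not pass, with intervals of -0.23 to 0.27 and -0.25 to 0.14. Under library size scaling *Snhg8* had -0.17 (adjusted p = 0.242). *Snhg1* had -0.21 ± 0.14 (adjusted p = 0.194) and passed with the replicate number of a clone as a block (-0.25, adjusted p = 0.0329). *Neat1* (-0.31 ± 0.12, adjusted p = 0.0229) and *Snhg3* (-0.28 ± 0.12, adjusted p = 0.0496) passed narrowly. The call of *Neat1* was lost without replicate 1 of clone 48 (adjusted p = 0.142) and without replicate 1, 2 or 3 of clone 66 (adjusted p = 0.159, 0.0519 and 0.0564). That of *Snhg3* was lost with DESeq2 (adjusted p = 0.0999), with the robust test (adjusted p = 0.0506), without replicate 1 or 2 of clone 48 (adjusted p = 0.0681 and 0.0721) and without replicate 1, 2 or 3 of clone 66 (adjusted p = 0.117, 0.167 and 0.147). In all 0 members were higher (against 32.9% of all genes) and 4 were lower (against 35.4%). With library size as the scaling 6 were lower, since *Snhg1* (-0.39, adjusted p = 0.0186) and *Snhg12* (-0.24, adjusted p = 0.0310) passed too. *Zfas1* was the 1 member with no overlap between the 12 libraries of each day, against 23.2% of all genes. *Malat1* (0.12 ± 0.22, adjusted p = 0.624) and *Kcnq1ot1* (-0.20 ± 0.21, adjusted p = 0.398) did not pass.

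The second question was whether both clones gave these changes. From day 0 to day 2, *Snhg1* rose in clone 48 (log2 fold change 1.42) and in clone 66 (0.88), *Snhg12* by 1.09 and 0.49, *Zfas1* by 0.82 and 0.40, and *Snhg8* by 0.70 and 0.49, each passing in both clones. *Gas5* passed in clone 48 (0.72) and not in clone 66 (0.35, adjusted p = 0.0800), and *Snhg3* in clone 66 (0.41) and not in clone 48 (0.35, adjusted p = 0.0758). *Neat1* fell in both, with -1.31 and -0.95. *Malat1* was called in clone 48 (-0.80, adjusted p = 0.0191) and had 0.20 in clone 66 (adjusted p = 0.565).

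The difference between the clones was tested as an interaction. For day 2 against day 0, 1 member passed, where 6.84% of all genes did: *Snhg12*, with a difference of -0.60 in the log2 fold change, clone 66 minus clone 48 (adjusted p = 0.0186). With the replicate number as a block 4 passed, adding *Malat1* (1.11, adjusted p = 0.0289), *Snhg1* (-0.50, adjusted p = 0.0443) and *Zfas1* (-0.44, adjusted p = 0.00818). For day 6 against day 2, 1 member passed, where 6.18% of all genes did: *Neat1*, which rose by 1.17 in clone 48 and 0.45 in clone 66, a difference of -0.73 (adjusted p = 0.0463). Under the block 4 passed, adding *Snhg1* (0.64, adjusted p = 0.0108), *Snhg12* (0.53, adjusted p = 0.0114) and *Zfas1* (0.50, adjusted p = 0.00323). When the *Rxra*WT and *Rxra*SA libraries of a clone, day and replicate number were summed to 1 unit, no member passed in either comparison, so these calls rest on the 2 libraries of a pair being separate samples. The call of *Snhg12* from day 0 to day 2 was lost without replicate 1 or 2 of clone 48 (adjusted p = 0.0632 and 0.0943) or replicate 2 or 3 of clone 66 (adjusted p = 0.0839 and 0.149), and that of *Neat1* without replicate 2 or 3 of clone 48 (adjusted p = 0.164 and 0.123) or any replicate number of clone 66 (adjusted p = 0.190, 0.0642 and 0.169). For day 6 against day 0, 0 members passed in the edgeR test, where 3.85% of all genes did, and 0 members had an unadjusted p under 0.05. DESeq2 likewise called 0.

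**Figure D2:**
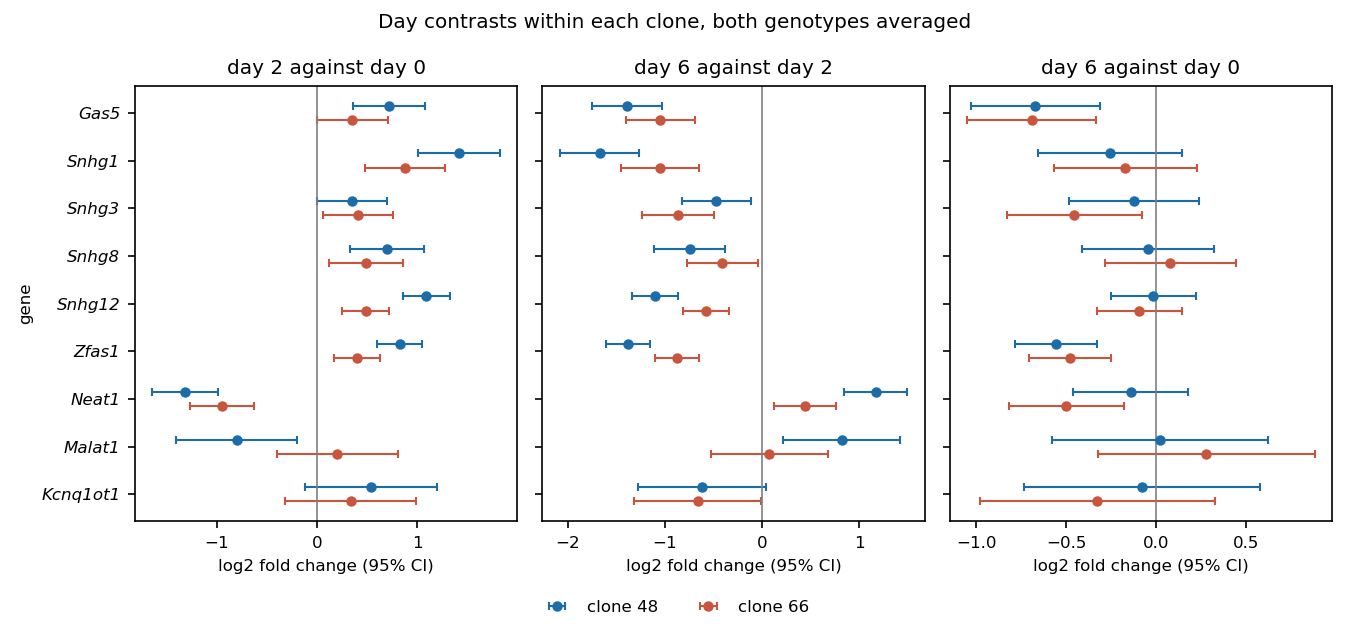
Log2 fold changes with 95% confidence intervals between days for each RNA, fitted within clone 48 and within clone 66, 1 panel per pair of days. The 6 hosts lie right of 0 in both clones for day 2 against day 0 and left of 0 for day 6 against day 2, and for *Malat1* the clone 48 value (-0.80) and the clone 66 value (0.20) have opposite signs at day 2.

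Compared directly, the clones differed most at day 2. *Snhg12* had 59.9 to 80.3 CPM in clone 48 and 34.3 to 46.3 in clone 66, over 6 libraries each (log2 fold change, clone 66 over clone 48, -0.78 ± 0.12, adjusted p = 4.49e-06). *Zfas1* had 90.0 to 124 CPM in clone 48 and 56.96 to 80.5 in clone 66 (-0.63 ± 0.11, adjusted p = 4.86e-05). *Snhg1* was lower in clone 66 (-0.62 ± 0.19, adjusted p = 0.0165) and *Neat1* was higher (0.52 ± 0.16, adjusted p = 0.0112), with ranges that overlapped. *Malat1* had 3030 to 8720 CPM in clone 48 and 8789 to 12179 in clone 66, and it did not pass (0.75 ± 0.29, adjusted p = 0.0539). So 1 member was higher in clone 66 (against 14.5% of all genes) and 3 were lower (against 15.5%). When the paired libraries were summed, *Neat1* (adjusted p = 0.0915) and *Snhg1* (adjusted p = 0.110) no longer passed. *Neat1* was also lost without replicate 2 of clone 48 (adjusted p = 0.104) or replicate 3 of clone 66 (adjusted p = 0.133), and *Snhg1* without replicate 1 or 2 of clone 48 (adjusted p = 0.0824 and 0.109) or replicate 2 or 3 of clone 66 (adjusted p = 0.0990 and 0.0906). *Malat1* passed with DESeq2 (0.77, adjusted p = 0.0274), without replicate 1 of clone 48 (1.04, adjusted p = 0.0250) and without replicate 1 of clone 66 (0.77, adjusted p = 0.0311), and *Gas5* in the last of these (-0.44, adjusted p = 0.0463).

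At day 0, 0 members differed between the clones by edgeR or by DESeq2 and 0 had an unadjusted p under 0.05, where 12.6% of all genes were higher and 11.1% lower in clone 66. At day 6 the 1 member that passed was *Snhg3*, with 1.22 to 2.04 CPM in clone 48 and 0.826 to 1.204 in clone 66 (-0.63, adjusted p = 0.0108), where 13.4% of all genes were higher and 12.8% lower. It did not pass without replicate 3 of clone 48 (adjusted p = 0.0575) or of clone 66 (adjusted p = 0.0572), and *Snhg12* passed without the former (-0.38, adjusted p = 0.0146).

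The third question was whether the serine 22 mutation of RXRα changed these RNAs. At days 0, 2 and 6, 0 members differed between *Rxra*SA and *Rxra*WT in the edgeR test, as 0% of all genes tested did on each day. The smallest adjusted p of any gene was 1. At an unadjusted p under 0.05 there were 139, 162 and 125 genes and 0 members, and DESeq2 called 0 members. Each count is below the share of 0.05 of the 16723 genes that would pass where nothing differs and the test is exact. The test was thus cautious, and these counts do not measure how alike the genotypes were. Over the members the log2 fold change, *Rxra*SA over *Rxra*WT, lay between -0.28 (*Malat1*) and 0.16 (*Snhg1*) at day 0, between -0.03 and 0.16 at day 2 and between -0.10 and 0.09 at day 6. The standard error ran from 0.12 for *Zfas1* to 0.31 for *Malat1*, so the interval for *Malat1* at day 0 was -0.91 to 0.34. This test had a term for clone and none for replicate number, although same-numbered libraries of the genotypes deviated together (mean correlation 0.71 over 18 pairs). Spread that the pairs share is therefore part of these standard errors and intervals. Among the 6 pairs of same-numbered libraries, *Malat1* was higher in *Rxra*SA cells in 3, 5 and 2 on the successive days, and *Zfas1* in 3, 3 and 3. Over all members this number ran from 1 (*Kcnq1ot1* at day 0) to 5 (*Malat1*, *Snhg8* and *Snhg12* at day 2).

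The genotypes did not differ in their time courses past the test either. For the genotype by time interaction, 0 members and 0% of all genes passed in each of the 3 pairs of days, with 144, 153 and 128 genes at an unadjusted p under 0.05 and 0 members among them. For the clone by genotype interaction, 0 members and 0% of all genes passed on each of the 3 days, with 283, 214 and 200 genes at an unadjusted p under 0.05 and 0 members among them. DESeq2 called 0 members in all of these. The counts at an unadjusted p under 0.05 were again below a share of 0.05 of all genes tested, so these tests were cautious too.

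**Figure D3:**
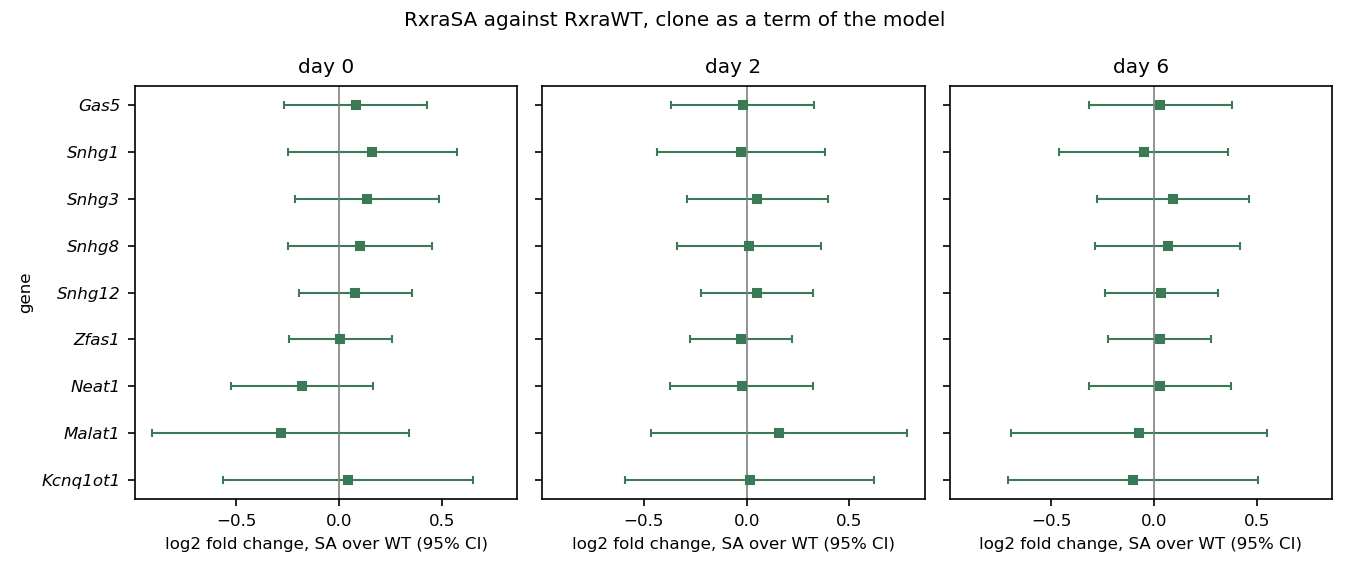
Log2 fold change of *Rxra*SA over *Rxra*WT with its 95% confidence interval for each RNA at days 0, 2 and 6, with clone as a term. Every interval spans 0, and the widest are those of *Malat1* and *Kcnq1ot1*.

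Libraries that shared a replicate number often deviated together across clones and genotypes. Over the 9381 tested genes with an average above 3 log2 CPM, same-numbered libraries of the 2 clones deviated together. Their deviations correlated above 0.1 in 16 of 18 pairs, with a range of -0.3533 to 0.905. Among the members the ratio between the highest and the lowest mean of a number was greatest for *Kcnq1ot1* at day 2 (2.68) and *Malat1* at day 6 (2.35). At day 2 the 4 libraries of replicate 1 had 81.1 to 130 CPM of *Kcnq1ot1* (mean 106), whereas replicate 2 had 35.2 to 45.4 and replicate 3 had 38.1 to 51.7. At day 6 replicate 1 had 24.7 to 33.5 CPM, so the replicate that was high at day 2 was low at day 6. *Malat1* at day 6 had 4226 to 9248 CPM in replicate 1, 10211 to 12586 in replicate 2 and 13025 to 16897 in replicate 3, 3 ranges that did not overlap. At day 0 the ratio for *Malat1* was 1.25, and replicate 1 alone ran from 5962 to 14624 CPM.

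Some hosts also followed the replicate number on some days. *Gas5* at day 2 had 222 to 273 CPM in replicate 1, 168 to 214 in replicate 2 and 136 to 162 in replicate 3. *Snhg1* at day 6 had 109 to 132 CPM in replicate 1, 84.3 to 96.0 in replicate 2 and 54.5 to 76.1 in replicate 3. In both, the 4 libraries of a number lay apart from the other 8. For *Snhg3*, *Snhg12* and *Zfas1* no number lay apart on any day, and at day 0 none did for any host. The share of all genes with such a gap was not counted. The mitochondrial share of counts moved with the number as well. It was 1.96 to 2.48% in replicate 1, 2.18 to 6.78% in replicate 2 and 4.15 to 9.09% in replicate 3 at day 6. Mitochondrial ribosomal RNA made up the rise, at 0.113 to 0.269%, 0.641 to 4.8% and 2.92 to 7.57% of counts, while the other mitochondrial genes had 1.81 to 2.33%, 1.53 to 1.99% and 1.2 to 1.75%. The part of these shares in the members' values was not tested.

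If same-numbered libraries were handled together, each day has 3 independent units rather than 12. The design text of the series and the paper's methods differ on whether the replicates are technical or independent. The p-values above therefore measure the spread between these libraries. With the 4 libraries of each day and number summed to 1 unit, leaving 9 units, the same 7 members passed for day 2 against day 0, with log2 fold changes of -1.04 for *Neat1* (adjusted p = 0.000556), 0.58 for *Gas5* (adjusted p = 0.0237), 1.23 for *Snhg1* (adjusted p = 0.000457), 0.45 for *Snhg3* (adjusted p = 0.0454), 0.65 for *Snhg8* (adjusted p = 0.0152), 0.89 for *Snhg12* (adjusted p = 0.000260) and 0.69 for *Zfas1* (adjusted p = 0.00118). For day 6 against day 2 the call of *Kcnq1ot1* was lost (adjusted p = 0.157). For day 6 against day 0, *Gas5* (adjusted p = 0.0188) and *Zfas1* (adjusted p = 0.0154) passed, and *Neat1* (adjusted p = 0.221) and *Snhg3* (adjusted p = 0.338) did not.

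**Figure D4:**
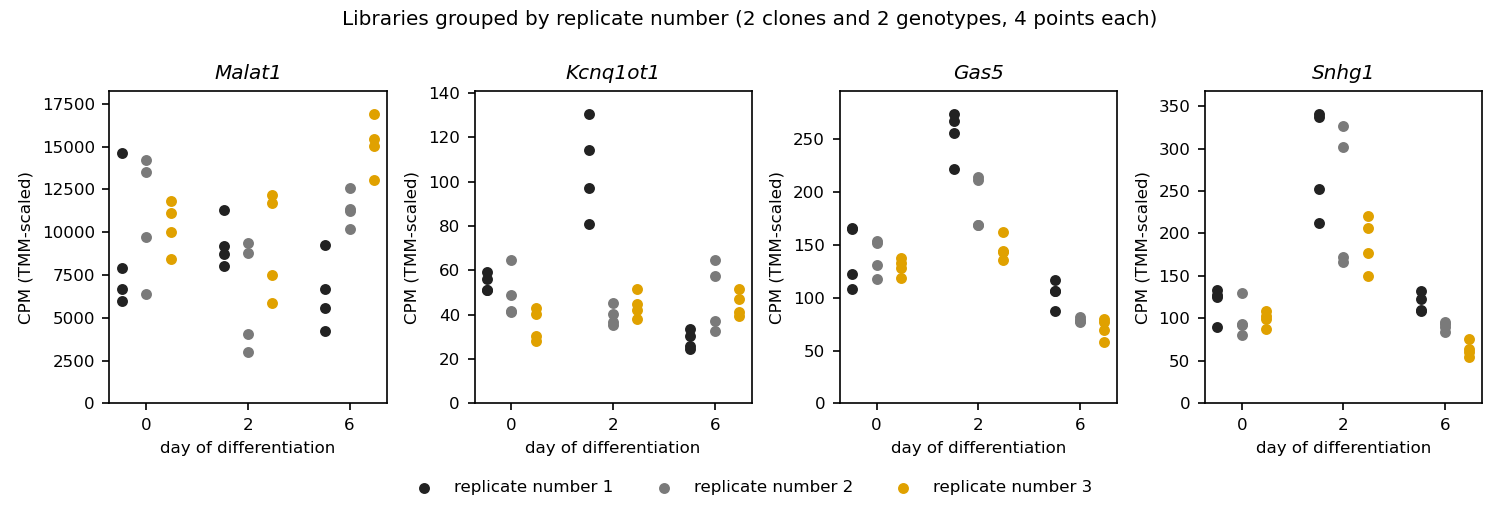
CPM (linear axes that start at 0) of *Malat1*, *Kcnq1ot1*, *Gas5* and *Snhg1* by day and replicate number, 4 libraries per number (both clones and both genotypes). *Kcnq1ot1* at day 2 lies at 81.1 to 130 CPM in replicate 1 and at 35.2 to 51.7 in the others.

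Genes of the same pathways were read from lists. Of 14 other snoRNA hosts listed, 10 were tested, and 8 were higher and 2 lower at day 2 than at day 0 (median log2 fold change 1.07, against -0.02 over all genes). Over all genes tested, 35.8% were higher and 37.5% lower. *Snhg15* had 1.93, *Snhg5* 1.79, *Snhg6* 1.14 and *Snhg17* 1.01, and the 2 lower were *Snhg14* (-1.25) and *Snhg18* (-1.66), both under 2 CPM on average. From day 2 to day 6, 1 was higher (*Snhg18*, 2.03) and 5 were lower (median -0.42), where 31.9% and 30.1% of all genes were. *Snhg17* (-1.11) and *Snhg15* (-1.51) fell as the members did, whereas *Snhg5* had -0.07 (adjusted p = 0.677). From day 0 to day 6, 5 were higher and 0 lower in the edgeR test, led by *Snhg5* (1.72), where 32.9% of all genes were higher and 35.4% lower. Among the 6 member hosts 0 were higher and 3 lower (*Gas5*, *Zfas1* and *Snhg3*, the last a call that most other settings ended), and the difference between the lists was not tested.

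The protein partners of snoRNAs moved in the same directions as the hosts. All 4 core proteins of the box C/D particle were higher at day 2 (median 0.86) and all 4 were lower at day 6 than at day 2 (median -1.13). Among all genes tested, 35.8% were higher at day 2 and 30.1% were lower at day 6 than at day 2. *Nop56* had 1.61 ± 0.10 and then -1.97 ± 0.10, and *Nop58* had 0.90 ± 0.10 and then -1.40 ± 0.10. *Fbl*, the methyltransferase that box C/D snoRNAs guide, had 0.82 and -0.86, and *Snu13*, the subunit that binds the snoRNA first, had 0.65 and -0.72.

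All 5 tested box H/ACA genes were higher at day 2 (median 0.93) and lower at day 6 than at day 2 (median -0.87). The shares over all genes were 35.8% and 30.1%. *Dkc1*, the pseudouridine synthase, had 1.16 and -1.62, and *Nhp2* had 1.84 and -1.20. Between days 0 and 6, *Nhp2* (0.63), *Naf1* (0.42) and *Nop10* (0.30) were higher and *Dkc1* (-0.46) was lower. Of 9 genes that assemble these particles, 6 were higher and 1 lower at day 2 (median 0.44), and 2 were higher and 5 lower from day 2 to day 6 (median -0.54). For all genes these shares were 35.8% and 37.5%, then 31.9% and 30.1%. *Nolc1*, a nucleolar chaperone, had 1.82 and -1.59, and *Znhit6*, which helps to load box C/D proteins, had 1.45 and -2.18.

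Protein partners of the nuclear RNAs were read in the same way. Of 12 paraspeckle proteins, 4 were higher and 0 lower at day 2 (median 0.19), where 35.8% and 37.5% of all genes were, and 0 were higher and 8 lower from day 2 to day 6 (median -0.35), where 31.9% and 30.1% of all genes were. The 4 higher are close to the share over all genes. *Nono*, a core paraspeckle protein, had -0.02 and -0.37, and *Hnrnpk* had 0.38 and -0.43. Of 13 speckle proteins, 10 were higher and 0 lower at day 2 (median 0.34), and 0 were higher and 9 lower from day 2 to day 6 (median -0.63), among them *Srsf1*, a splicing factor, with 0.24 and -0.63. Of 5 other nuclear long noncoding RNAs tested, 0 were higher and 2 lower at day 2, and *Tug1* had -0.12 and -0.07.

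Of 10 genes of nonsense-mediated decay, 5 were higher and 1 lower at day 2 (median 0.17), and 1 was higher and 5 lower from day 2 to day 6 (median -0.36), against the same shares of all genes (35.8% and 37.5%, then 31.9% and 30.1%). *Upf1*, its central helicase, had 0.64 and then -0.29 (adjusted p = 0.0663), and *Smg5* had 0.83 and -1.18. In the *Kcnq1* imprinted domain, where *Kcnq1ot1* silences genes on the paternal copy, 5 of 10 genes were tested. *Osbpl5* had -1.80 and 1.25, *Nap1l4* had 1.07 and -0.62 and *Cd81* had -0.29 and 0.60. *Kcnq1* itself had 0 to 4 counts, *Cdkn1c* and *Ascl2* had 0 to 1 and *Phlda2* had 0, so these genes could not be compared at this depth.

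**Figure D5:**
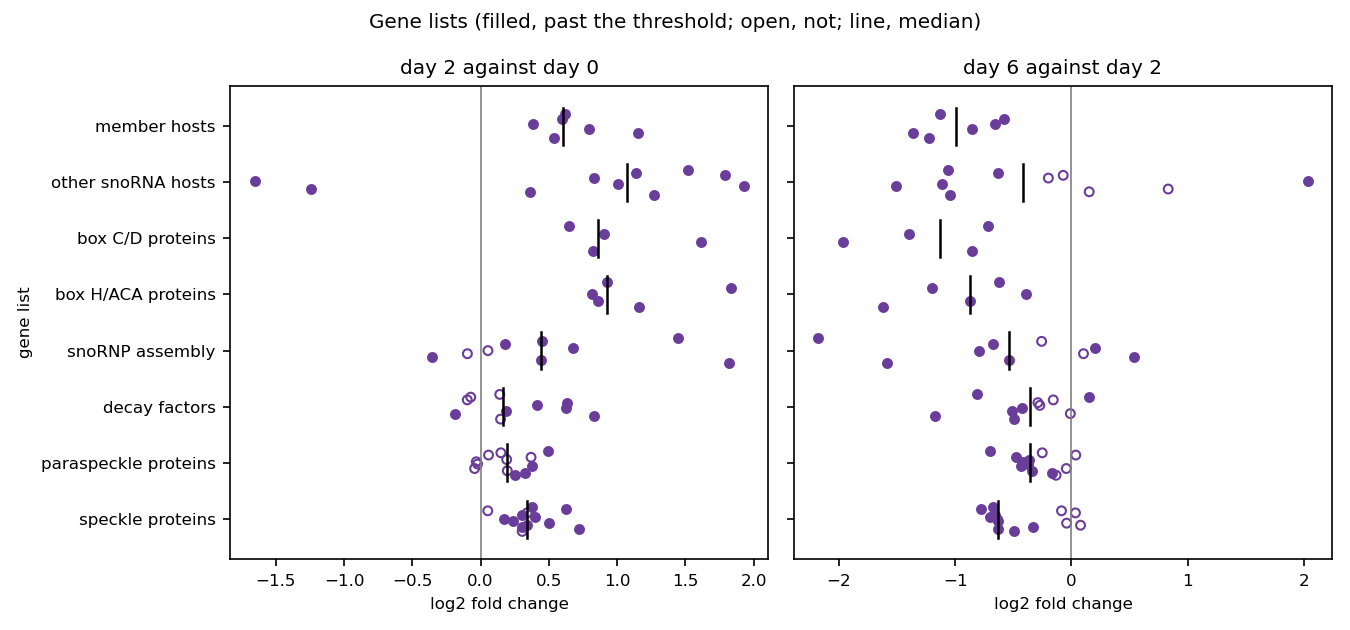
Log2 fold changes for day 2 against day 0 and day 6 against day 2 of the 6 member hosts and of the tested genes of 7 lists, 1 point per gene, filled where the gene passed the test, with a line at the list median. The member hosts and the box C/D and box H/ACA genes lie above 0 for day 2 against day 0 and below 0 for day 6 against day 2, and 2 of the other hosts, *Snhg14* and *Snhg18*, lie below 0 in the first.

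Several hosts share a start region with a coding gene on the opposite strand. *Slc3a2*, an amino acid transporter subunit whose start lies 106 bases from that of *Snhg1*, had 1.66 from day 0 to day 2, -1.04 from day 2 to day 6 and 0.62 from day 0 to day 6, where *Snhg1* had -0.21. *Znfx1* starts 81 bases from *Zfas1* and shares 82 exon bases with it. It had 1.06, -0.63 and 0.43, and so ended higher where *Zfas1* ended lower (-0.52). *Zbtb37*, opposite *Gas5*, had -0.19, 0.22 and 0.02 and did not rise at day 2 with *Gas5*. For *Snhg3* the overlap is larger: *Rcc1*, on the same strand, had 0.54, -0.86 and -0.32, and the antisense gene *Gm17300*, over 705 of its exon bases, had 1.12, -1.31 and -0.19. *Frmd8os*, which starts 145 bases from *Neat1* on the opposite strand, had -0.03 at day 2 and 0.96 from day 2 to day 6.

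Lastly, each member was set against the 9381 tested genes with an average of at least 3 log2 CPM, by the root mean square difference of centred log2 CPM over the 12 groups of clone, genotype and day. This is a description of likeness and has no test. The nearest to *Gas5* were *Rrp15* (0.11) and *Ebna1bp2* (0.12), to *Snhg1* *Exosc2* (0.15) and *Qtrt2* (0.15), to *Zfas1* *Tsr2* (0.09) and *Ranbp1* (0.11), to *Snhg12* *B3galt6* (0.08) and *Wdr89* (0.10), to *Snhg8* *Uba2* (0.06) and *Tasp1* (0.07) and to *Snhg3* *Vcpkmt* (0.09) and *Tma7* (0.09). *Rrp15*, *Ebna1bp2*, *Exosc2* and *Tsr2* encode proteins of ribosome or ribosomal RNA maturation. The other genes nearest to the hosts were not sorted by function. The share of ribosome maturation genes among the 9381 was not counted. The nearest to *Neat1* were *Ube2r2* (0.13) and *Dleu2* (0.14), to *Malat1* *Akap9* (0.12) and *Uvssa* (0.13) and to *Kcnq1ot1* *Zdhhc17* (0.07) and *Senp8* (0.08). Among the members themselves, *Snhg12* and *Zfas1* were 0.20 apart, *Kcnq1ot1* and *Snhg3* 0.14 apart, and *Neat1* and *Snhg1*, at 1.11, were the farthest apart of the 36 pairs.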

How the data were processed

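Total RNA libraries (TruSeq Stranded Total RNA Gold) were sequenced in pairs on a NextSeq instrument. The authors aligned the reads to GRCm38.p6 with STAR 2.7.0d and deposited raw counts of read pairs per gene, made with featureCounts 1.6.2 on GENCODE M21 exons without strand, in which a pair that belongs to more than 1 gene is not counted. The submitters' processing notes also name edgeR 3.24.3 and mm10. Groups, clone, day and replicate number came from the sample labels.

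Counts were scaled by TMM, filtered on the 6 groups of genotype and day, and tested with edgeR 4.0.16 (limma 3.58.1, R 4.3.3) by the quasi-likelihood test, with a term for clone as in the study's model, or with 1 coefficient per clone, genotype and day for comparisons of clones. P-values are two-sided and Benjamini-Hochberg adjusted over 16723 genes, with a threshold of 0.05. CPM values use the TMM library sizes. The steps were tested on simulated counts. DESeq2 1.42.0, other scalings, filters and models, and the omission of each replicate number of a clone were alternatives. Sums over same-numbered libraries, the omission of the 4 day 2 libraries of replicate 1, and the omission of the library that stood apart were chosen after seeing the data.

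The members and gene lists were chosen with earlier results of these data known. All 9 members were described. From each list the called genes with the largest change between days 0 and 6 and the most abundant others were named, with a few added to these after their values were seen. Of the 14 listed snoRNA hosts 11 matched a symbol. The replicate number paired the libraries: when matched by clone, number and day, *Rxra*SA libraries correlated with *Rxra*WT libraries in their deviations from the group means in all 18 pairs (0.1762 to 0.9304, mean 0.71, over 9381 genes). Figures were drawn with matplotlib.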

Additional observations from a re-analysis of the deposited data

Results flagged for a closer look

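One library of *Zfas1* stood far from the others of its group. Among the 6 *Rxra*SA libraries of day 0, clone 48 replicate 2 had 76.0 CPM and the nearest had 54.2, a gap of 0.79 of the group's range, above the 95% critical value of Dixon's test. Of 54 groups of 6 libraries (9 RNAs, both genotypes, 3 days) 1 passed this limit, and chance alone passes about 1 in 20.

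Of 81 interaction tests (clone by time, genotype by time and clone by genotype for 9 RNAs) 2 passed, both between the clones in how an RNA changed with time. Among all genes tested, 6.84% passed for clone by time from day 0 to day 2, 6.18% from day 2 to day 6 and 3.85% from day 0 to day 6. For the other interactions 0% did. From day 0 to day 2 the rise of *Snhg12* was smaller in clone 66 than in clone 48, by -0.60 on the log2 scale (adjusted p = 0.0186). From day 2 to day 6 the rise of *Neat1* was smaller in clone 66, by -0.73 (adjusted p = 0.0463). With the paired libraries summed neither passed (adjusted p = 0.245 for *Snhg12* and 0.347 for *Neat1*). Both were also lost when some replicate numbers of a clone were left out, as given above. Clone and library pool cannot be told apart.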

How the results depend on the processing

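No call of a member reversed. With library size as the scaling, 6 members in place of 4 were called for day 6 against day 0. Leaving out each replicate number of a clone, the library that stood apart or the 4 day 2 libraries of replicate 1, gave 7 to 8 members called for day 2 against day 0, 7 to 8 for day 6 against day 2, 2 to 4 for day 6 against day 0, 2 to 6 between the clones at day 2, 0 to 1 at day 6, 0 to 1 for clone by time from day 0 to day 2 and 0 to 2 from day 2 to day 6, and 0 for genotype and its interactions. Over these omissions the genes called numbered 11548 to 12411, 9577 to 10446 and 10657 to 11391 for the 3 pairs of days in that order. Between the clones they numbered 3704 to 5124 at day 2 and 3146 to 5053 at day 6. For clone by time they numbered 574 to 1315 and 537 to 1398, and for genotype and its interactions 0. The main fit tested 16723 genes. With the replicate block 4 members (1 without it) passed for clone by time from day 0 to day 2 and 4 (1 without it) from day 2 to day 6, and *Snhg1* passed for day 6 against day 0. The block changed no other call. Clone by time from day 2 to day 6 gave 3 members with a filter of 1 CPM, 3 with DESeq2 and 2 with the version 4 quasi-likelihood test. With paired libraries summed to 18 units, clone by time gave 0 and 0, the clones at day 2 differed in 2, and day 6 against day 0 gave 2, as it did with 9 units. Without a filter, day 6 against day 0 gave 2 and the clones at day 6 gave 0. In that setting *Kcnq1ot1* passed for day 2 against day 0 (adjusted p = 0.0186). *Malat1* passed between the clones at day 2 (adjusted p = 0.00433). It also passed for clone by time from day 0 to day 2 (adjusted p = 0.0336), where *Snhg12* did not (adjusted p = 0.0973). With the longest transcript as length, 7 of the 9 members kept their rank on all days, the exceptions being *Neat1* and *Snhg12*, and with only the exon bases of no other gene, a length chosen after seeing the data, 3 did.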
